A study of Mus musculus with 9 samples.

Results

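The cytosolic ribosome of these neurons is described here through the genes that encode its proteins. Members were the genes whose symbol is Rpl, Rps or Rplp followed by a number and, for some, a paralog ending, together with Rpsa, provided that their counts summed over the 9 libraries reached 100. Of 84 such symbols, Rpl10l (0 counts in all), Rpl3l (16 counts) and Rpl39l (22 counts) stayed under that minimum, which left 81 of the 24060 genes counted. These 81 genes comprised 49 of the large subunit and 32 of the small subunit, and all 81 passed the filter on low counts that left 15153 genes for testing. RNA came from primary immature neurons of embryonic day 14 mice, plated on poly-D-lysine and cultured for 2 days with fetal bovine and horse serum. The cultures were untreated (control), given 1 mM 2-deoxyglucose or given 10 mM 2-deoxyglucose, a glucose analog that hexokinase phosphorylates but that glycolysis cannot use further, for 6 h. Each group had 3 libraries. The series calls its replicates independent without saying which cultures or embryos they were, so p-values measure the spread between these libraries. No strain, genotype or sex is given in the labels.

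A ribosome joins a small subunit, which reads the mRNA, to a large subunit, which forms the peptide bond, and each subunit is a shell of proteins on a core of ribosomal RNA. Most of these proteins are present in a single copy per ribosome, and their mRNAs belong to the family whose 5′ end begins with a cytosine followed by a run of pyrimidines (the 5′TOP family), through which mTOR signalling sets how strongly they are translated. In neurons, ribosomal protein mRNAs are also found in axons and dendrites.

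Library totals lay between 40.1 M and 48.2 M counts. The cells carried the markers of their label: 15 listed markers of immature neurons summed to 8475 to 8770 CPM (counts relative to each library's TMM-scaled total) in control libraries, 8179 to 8410 CPM at 1 mM and 7260 to 7677 CPM at 10 mM. At 10 mM, 1 of the 15 rose and 5 fell. Of all genes tested, 25.7% rose and 24% fell at 10 mM, and 5.69% and 4.34% at 1 mM. The 18 microglial markers summed to 119 to 178 CPM in control, 66.6 to 80.7 CPM at 1 mM and 64.6 to 91.8 CPM at 10 mM, and 11 of the 18 fell at 1 mM and 16 of the 18 at 10 mM. Those of the oligodendrocyte lineage, 4 of 5 tested, summed to 44.9 to 47.7 CPM in control, 34.1 to 39.5 CPM at 1 mM and 27.8 to 35.3 CPM at 10 mM, and 2 fell at 10 mM. The 10 radial glia markers summed to 1640 to 2098 CPM in control, 1412 to 1719 CPM at 1 mM and 1337 to 1655 CPM at 10 mM, and 3 fell at 10 mM. Of 5 erythroid markers, 4 were at 0 in every library. In bulk RNA, fewer cells of a type and less RNA per cell cannot be told apart, and the part of these other cells in the results on ribosomal protein genes was not tested.

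The sequences around the annotated starts are shown first because the 5′ end is the feature by which this gene family is usually recognised. In the RefSeq promoter table (assembly GRCm38.p6), 60 of the 81 members were matched. A C followed by C or T for at least 5 bases in all stood exactly at the annotated start in 13 of those 60 members (21.7%), against 3.01% of the 27025 genes in the table. A C-started run of at least 8 pyrimidines that began within 20 bases of the annotated start, read on the gene's own strand, was found in 32 of the 60 (53.3%), against 16.6% of all genes. By subunit, this longer run was found in 21 of 37 large and 11 of 23 small subunit genes. The 7 windows printed here run from 60 bases before the annotated start to 30 bases from it, 5′ to 3′ on the gene's strand, with the pyrimidine run in capitals. Those of Rps27, Rps12, Rpl10a and Rpl22l1 belong to members with large differences at 10 mM, that of Rpl13a to a member with a smaller rise, that of Rps6 to a member near the median, and that of Rps27l to a member that fell. They lie at chr3:90213619-90213708 (minus strand) for Rps27, chr10:23787180-23787269 (minus strand) for Rps12, chr17:28328505-28328594 (plus strand) for the downstream one of the annotated starts of Rpl10a, chr3:28805448-28805537 (plus strand) for Rpl22l1, chr7:45128716-45128805 (minus strand) for Rpl13a, chr4:86857338-86857427 (minus strand) for Rps6 and chr9:66946026-66946115 (plus strand) for the upstream one of the starts of Rps27l.
Rps27: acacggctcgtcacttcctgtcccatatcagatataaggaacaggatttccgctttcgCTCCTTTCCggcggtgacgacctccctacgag
Rps12: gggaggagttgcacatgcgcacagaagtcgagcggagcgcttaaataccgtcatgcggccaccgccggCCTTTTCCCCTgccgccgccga
Rpl10a: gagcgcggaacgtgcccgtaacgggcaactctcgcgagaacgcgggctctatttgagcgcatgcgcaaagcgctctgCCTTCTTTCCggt
Rpl22l1: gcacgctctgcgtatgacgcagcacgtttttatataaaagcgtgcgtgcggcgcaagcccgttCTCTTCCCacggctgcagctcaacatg
Rpl13a: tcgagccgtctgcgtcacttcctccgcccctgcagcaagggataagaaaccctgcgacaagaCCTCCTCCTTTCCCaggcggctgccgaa
Rps6: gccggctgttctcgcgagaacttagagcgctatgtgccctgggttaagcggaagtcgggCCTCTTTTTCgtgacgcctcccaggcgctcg
Rps27l: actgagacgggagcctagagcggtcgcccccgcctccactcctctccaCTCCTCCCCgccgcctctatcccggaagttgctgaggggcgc
The run of Rps6 spans the annotated start and that of Rps12 begins 8 bases after it. The runs of Rpl10a and Rpl13a lie wholly downstream of their annotated starts, and that of Rps27l lies upstream. Only windows with a run are printed. In Rpl12, Rpl10 and Rpl22, members that also had large differences at 10 mM, no such run began within 20 bases of an annotated start. A window of Rpl22 held one farther upstream, outside that range. The other annotated starts of Rpl10a and Rps27l had none within that range either. A run is a match of letters in the reference, and where these cells start transcription was not measured.

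At 10 mM, ribosomal protein mRNAs of both subunits were higher than in control, most of them by a small amount. The median log2 fold change was 0.29 over the 81 members, against -0.01 over all 15153 genes tested. Of the 81, 47 rose, 2 fell and 32 did not pass the test (edgeR's quasi-likelihood test, Benjamini-Hochberg adjustment over all genes, threshold 0.05). Over all genes tested, 25.7% rose and 24% fell. The central part of the members, from the lower to the upper quartile, lay between 0.15 and 0.36 on the log2 scale. In 48 members all 3 libraries at 10 mM lay above all 3 control libraries, and in 1 member all lay below. The corresponding shares of all genes were 29.2% and 27.6%. Paired by replicate number, 68 members were higher at 10 mM in every one of the 3 pairs. Agreement in pairs was not counted over all genes, so that number has no share to be set against. With the replicate number as a block, 63 members rose and 2 fell, against 34.4% and 33.8% of all genes.

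**Figure D1:**
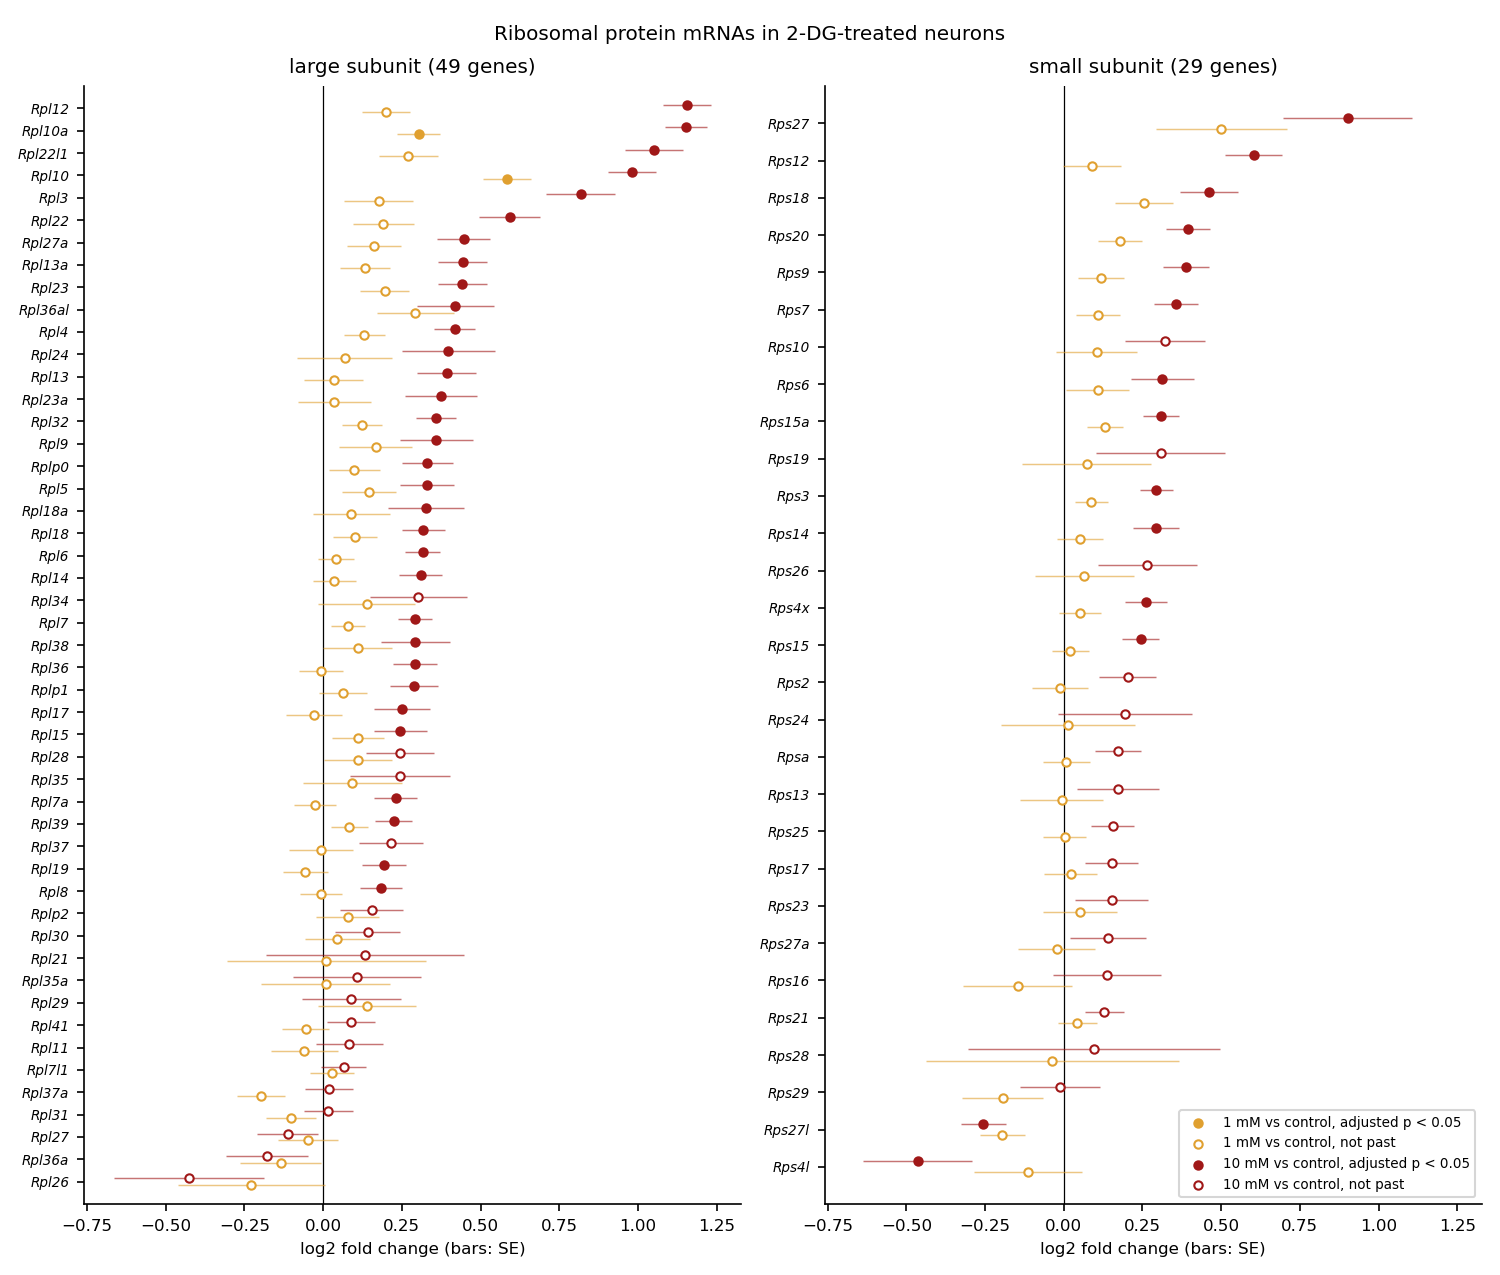
Log2 fold change of 78 of the 81 ribosomal protein genes against control at 1 mM (yellow) and 10 mM (red) 2-deoxyglucose, large subunit on the left and small subunit on the right, ordered by the 10 mM value; bars are standard errors and filled points passed an adjusted p of 0.05. At 10 mM, 46 of the 49 large and 26 of the 29 small subunit genes plotted lie above 0, and a few members stand far to the right of the others.

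The number of members called depended on the scaling. With upper-quartile scaling the median of all genes at 10 mM moved down by 0.12 on the log2 scale, and 27 members rose in place of 47, while 2559 of all genes rose and 5093 fell in place of 3899 and 3639. The member medians under that scaling were 0.18 for the large and 0.14 for the small subunit, beside -0.13 for all genes. Of the 49 calls, 27 were kept under every alternative and with any library left out, and all 27 were rises.

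The subunits were compared by their counts and medians. At 10 mM, 32 of the 49 large subunit genes (65.3%) and 15 of the 32 small subunit genes (46.9%) rose, and 0 large and 2 small subunit genes fell. The shares of all genes were 25.7% and 24%. The medians of the large and small subunit were 0.29 and 0.26. Within each library, the large subunit median minus the small subunit median (log2, relative to the control mean) was 0.034 ± 0.0097 at 10 mM, 0.012 ± 0.026 at 1 mM and -0.0054 ± 0.032 in control (SD over 3 libraries). In the pairs of replicates 1, 2 and 3, the median at 10 mM against control was 0.27, 0.31 and 0.31 for the large and 0.19, 0.26 and 0.29 for the small subunit, so the large subunit was higher in each pair. With the block, 39 large and 24 small subunit genes rose, against 34.4% of all genes. Leaving out the 8 members with a log2 fold change over 0.5, a limit chosen after the values were seen, both medians came to 0.25.

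Read in sums, the balance of the subunits moved a little. Large subunit genes took 0.609%, 0.540% and 0.559% of all counts in control replicates 1 to 3, 0.626%, 0.576% and 0.592% at 1 mM, and 0.686%, 0.647% and 0.675% at 10 mM. Small subunit genes took 0.459%, 0.402% and 0.410% in control, 0.463%, 0.424% and 0.430% at 1 mM, and 0.5%, 0.467% and 0.485% at 10 mM. Replicate 1 was the highest library of each group for both subunits, and the share of each subunit at 10 mM lay above the control range. The ratio of large to small subunit counts was 1.33, 1.34 and 1.36 in control, 1.35, 1.36 and 1.38 at 1 mM, and 1.37, 1.39 and 1.39 at 10 mM. It was higher at 10 mM than in control in each of the 3 pairs, and the 10 mM libraries lay above all 3 control libraries. The difference between the subunits was not given a p-value, since no score over the members was tested.

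**Figure D2:**
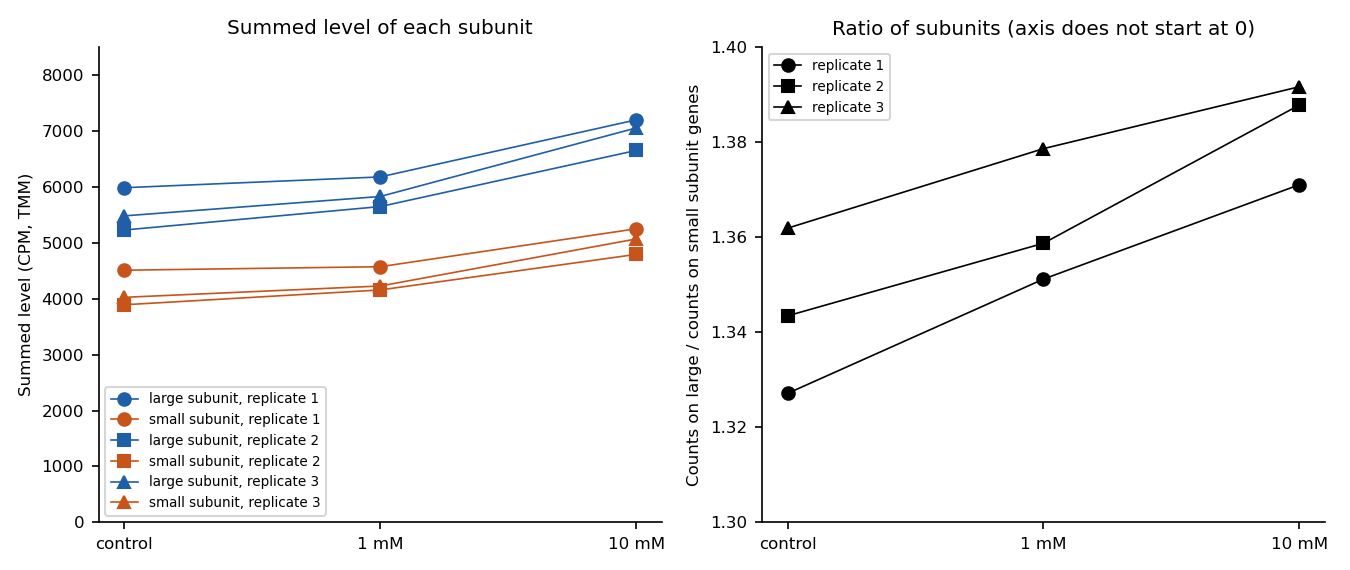
Left, summed CPM of the 49 large (blue) and 32 small (orange) subunit genes in each library, with lines joining libraries of the same replicate number; right, counts on large subunit genes divided by counts on small subunit genes, on an axis that does not start at 0. Both sums rise from control to 10 mM in every replicate, and the ratio goes from 1.33 to 1.36 in control to 1.37 to 1.39 at 10 mM.

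At 1 mM the family hardly moved in the test without pairing. Of the 81 members, 2 rose and 0 fell, against 5.69% and 4.34% of all genes tested, and the medians were 0.08 for the large and 0.05 for the small subunit beside 0.0034 for all genes. All libraries at 1 mM lay above control in 7 members and below it in 2, against 14.7% and 13.1% of all genes. Paired by replicate number, 37 members were higher and 8 lower in all 3 pairs, a count not made over all genes. Beside the 2 rises and 0 falls without it, with the replicate block 24 members rose (17 large and 7 small) and 2 fell, against 18.1% and 18.3% of all genes. In edgeR's quasi-likelihood test with the block, the 2 that fell were Rpl37a (log2 fold change -0.20, adjusted p = 0.00875) and Rps27l (-0.20, adjusted p = 0.0013). By CPM, both were lower in each of the 3 pairs. Neither passed without the block, with adjusted p = 0.138 and 0.119.

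The 2 members called at 1 mM were Rpl10 and Rpl10a, which despite their names are unrelated proteins of the large subunit. Rpl10, which sits beside the tRNA sites and is among the last proteins added to the large subunit, was at 15.5, 14.5 and 14.3 CPM in control replicates 1 to 3. It was at 20.3, 23.9 and 22.3 CPM at 1 mM, and at 28.5, 29.2 and 29.7 CPM at 10 mM. The 3 groups did not overlap, with control lowest and 10 mM highest. The log2 fold change was 0.58 ± 0.08 (SE, adjusted p = 0.000787, edgeR) at 1 mM and 0.98 ± 0.08 (adjusted p = 3.87e-06) at 10 mM. Rpl10a, a protein of the L1 stalk through which the spent tRNA leaves, was at 22.4, 21.2 and 21.5 CPM in control, 28.7, 26.3 and 25.2 CPM at 1 mM, and 47.1, 46.7 and 50.8 CPM at 10 mM. Here too the groups did not overlap. Its log2 fold change was 0.30 ± 0.07 (adjusted p = 0.0178) at 1 mM and 1.15 ± 0.07 (adjusted p = 5.14e-07) at 10 mM, the latter a 2.22-fold difference. The call of Rpl10a at 1 mM was lost without 1 mM replicate 1 (adjusted p = 0.0784) or without control replicate 3 (0.0634).

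Between the doses, 35 members rose from 1 mM to 10 mM (23 large, 12 small) and 0 fell, against 17.5% and 13.7% of all genes. The medians were 0.22 for the large and 0.21 for the small subunit. In 46 members the 10 mM libraries lay above all 1 mM libraries and in 0 they lay below, against 24.4% and 20.2% of all genes. All 3 comparisons share libraries, so they are not separate evidence of each other. With the replicate block 59 members rose and 1 fell, Rps4l, against 30.7% and 25.6% of all genes. Without the block, the count of 35 changed with single libraries: 13 members rose without 1 mM replicate 2, 14 without 10 mM replicate 1, 20 without 10 mM replicate 3 and 21 without 1 mM replicate 3. Rpl12 (log2 fold change 0.96), Rpl10a (0.85), Rpl22l1 (0.78), Rpl3 (0.64), Rpl22 (0.40) and Rpl10 (0.40) had the largest called differences among large subunit genes. Among small subunit genes, Rps12 (0.51), Rps9 (0.27) and Rps7 (0.25) were among those with large called differences.

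Of the 81 members, 8 stood apart at 10 mM with a log2 fold change over 0.5: Rpl12, Rpl10a, Rpl22l1, Rpl10, Rps27, Rpl3, Rps12 and Rpl22. Just outside this limit came Rps18 at 0.46 and Rpl27a at 0.45. Rpl12, which forms the base of the stalk where elongation factors bind, was at 17.1, 16.4 and 15.3 CPM in control, 19.5, 19.1 and 17.5 CPM at 1 mM and 36.7, 33.9 and 38.1 CPM at 10 mM. The 10 mM libraries were far above the rest, while the 1 mM libraries lay just above control without overlapping it. The log2 fold change at 10 mM was 1.16 ± 0.08 (2.23-fold, adjusted p = 1.3e-06, edgeR). At 1 mM it was 0.20 ± 0.08, with adjusted p = 0.142, and adjusted p = 0.0147 with the replicate block.

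Rpl22 and its paralog Rpl22l1, which can stand in for each other in the large subunit, both rose at 10 mM. Rpl22l1 was at 12, 10.4 and 10.4 CPM in control, 13.8, 13.7 and 12.1 CPM at 1 mM and 24, 22 and 21.8 CPM at 10 mM, with no overlap between groups. Its log2 fold change at 10 mM was 1.05 ± 0.09 (adjusted p = 8.6e-06, edgeR). Rpl22 was far more abundant, at 220, 174 and 197 CPM in control, 245, 203 and 226 CPM at 1 mM and 319, 268 and 303 CPM at 10 mM. The 10 mM libraries lay above the others, and control and 1 mM overlapped. The log2 fold change was 0.59 ± 0.10 (adjusted p = 0.000533) at 10 mM. At 1 mM, Rpl22 (adjusted p = 0.266) and Rpl22l1 (0.0969) passed with the block, at 1.5e-05 and 0.00229.

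Rpl3 lies closest of all the proteins to the catalytic centre of the large subunit. It was at 14.3, 13.5 and 17.0 CPM in control, 17.9, 16.5 and 16.2 CPM at 1 mM and 26.9, 23.0 and 29.0 CPM at 10 mM. Control and 1 mM overlapped and 10 mM stood above both, with a log2 fold change of 0.82 ± 0.11 (adjusted p = 0.000145, edgeR).

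In the small subunit, Rps27 and Rps12 had the largest rises. Rps27, a zinc-binding protein, was the least counted of the 8, at 2.52, 1.48 and 2.20 CPM in control, 3.16, 2.32 and 3.28 CPM at 1 mM and 3.95, 3.37 and 4.27 CPM at 10 mM. The 10 mM libraries lay above all others, and control and 1 mM overlapped. The log2 fold change was 0.90 ± 0.21 (adjusted p = 0.00413, edgeR). At 1 mM it was 0.50 ± 0.21, which passed with the replicate block only (adjusted p = 0.171 without and 0.00555 with it). Rps12, a protein of the small subunit's beak, was at 10.6, 11.3 and 9.31 CPM in control, 11, 11.6 and 10.6 CPM at 1 mM and 15.2, 16.2 and 16 CPM at 10 mM. Only the 10 mM libraries stood apart, with a log2 fold change of 0.60 ± 0.09 (adjusted p = 0.00031). Rps18 (0.46) and Rps20 (0.39) also rose.

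**Figure D3:**
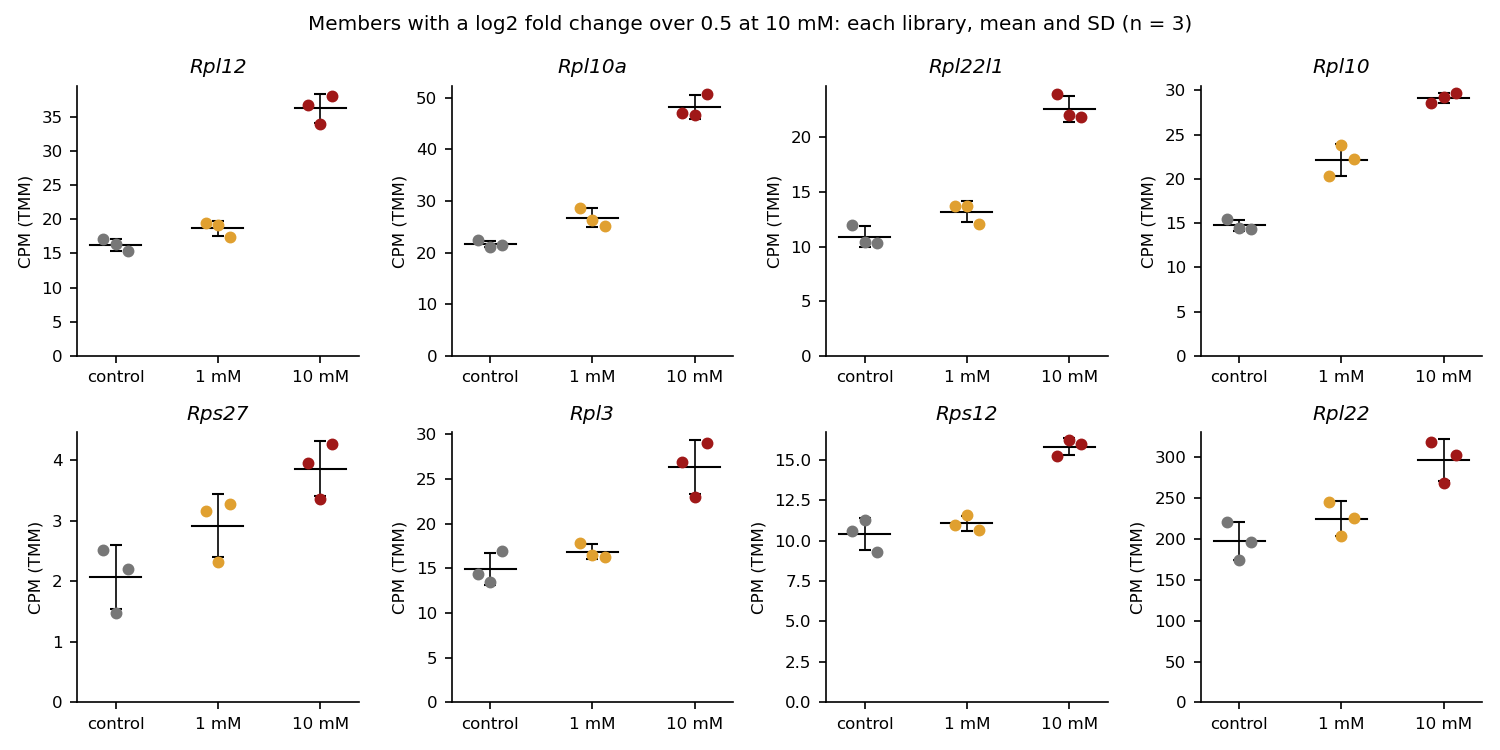
CPM of the 8 members whose log2 fold change at 10 mM exceeded 0.5, 1 panel per gene, with each library as a point and the mean and SD of 3 libraries as bars; each axis starts at 0. In all 8 panels the 3 libraries at 10 mM lie above the 3 control libraries.

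Some annotation features that the limit did not use were compared, without a test. In GENCODE M21 (GRCm38), 5 of the 8 have a transcript annotated for nonsense-mediated decay, the removal of mRNAs with an early stop codon, against 14 of the other 73 members. In Caenorhabditis elegans, genes for ribosomal proteins L3, L7a, L10a and L12 are known to make spliced forms that this pathway removes. Of their mouse counterparts, Rpl7a has 0 such transcripts annotated and had a log2 fold change of 0.23 at 10 mM. Members with such a transcript had a median log2 fold change of 0.36 at 10 mM (13 of 19 rose), and members without one 0.25 (34 of 62 rose). Genes with a small nucleolar RNA inside them, which is cut out of the host's introns, had a median of 0.33 (21 of 29 rose), against 0.25 (26 of 52) for the others. The share that rose among all genes tested was 25.7%. The 8 members also had more sequence in common with other annotated genes: the median share of 75-base windows found in another gene was 82.9%, against 39.9% for the other 73. Because the counts are per gene, which transcript or copy the added reads came from was not tested.

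The 2 members called as falling at 10 mM, with all libraries in the fit, were paralogs of other members. Rps27l, a paralog of Rps27 that p53 is known to induce in human cells, was at 39.2, 41.0 and 42.0 CPM in control, 34.1, 35.0 and 37.7 CPM at 1 mM and 32.3, 32.6 and 37.5 CPM at 10 mM. Both treated groups lay below control without overlap, and they overlapped each other. The log2 fold change at 10 mM was -0.26 ± 0.07 (adjusted p = 0.0122, edgeR), and adjusted p = 0.0544 without 10 mM replicate 1. Rps4l, an intronless relative of Rps4x on chromosome 6, was at 6.86, 8.5 and 9.4 CPM in control, 6.99, 7.85 and 8.06 CPM at 1 mM and 4.67, 5.69 and 7.58 CPM at 10 mM. Control and 10 mM overlapped, but the 10 mM library was lower in each of the 3 pairs. Its log2 fold change was -0.46 ± 0.17 (adjusted p = 0.0458), and the call was lost in the fit to the 6 libraries compared (0.0641) and without 10 mM replicate 1 (0.164) or 2 (0.097), 1 mM replicate 1 (0.0565) or 3 (0.0573), or control replicate 2 (0.0831) or 3 (0.135). With the block its adjusted p was 0.000137. Rpl26, a protein at the rim of the exit tunnel, had a log2 fold change of -0.43 ± 0.24 but did not pass the test (adjusted p = 0.161).

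Paralogs can be set against their partners within each library. The log2 ratio of Rps27l to Rps27 was 3.95, 4.78 and 4.25 in control, 3.43, 3.91 and 3.52 at 1 mM, and 3.03, 3.27 and 3.13 at 10 mM. The control and treated libraries did not overlap, and the mean ratio went from 4.33 ± 0.42 to 3.14 ± 0.12 (SD, n = 3). For Rps4l and Rps4x the mean log2 ratio was -4.89 ± 0.32 in control, -5.05 ± 0.19 at 1 mM and -5.63 ± 0.40 at 10 mM, while Rps4x itself rose at 10 mM (log2 fold change 0.26, adjusted p = 0.00772, edgeR). Rpl22l1 moved from -4.17 ± 0.09 to -3.71 ± 0.09 relative to Rpl22. Rpl36al, whose protein is nearly the same as that of Rpl36a, rose at 10 mM (0.42, adjusted p = 0.016), while Rpl36a was at -0.18 (adjusted p = 0.277), and their mean log2 ratio went from 2.85 ± 0.34 to 3.42 ± 0.21. Rpl7l1, a relative of Rpl7 that works in ribosome assembly, was at 0.06 (adjusted p = 0.47), and Rpl7 rose by 0.29 (adjusted p = 0.00116). Their mean log2 ratio was -1.79 ± 0.04 in control and -2.02 ± 0.07 at 10 mM. These ratios carry no test of their own, and they compare differences, since gene length cancels only between groups. Rps27 had 65 to 103 counts per control library, with 98.5% of its 75-base windows found in another gene. For Rpl36a that share was 84.6%. Ratios to these partners are uncertain to the extent that copies took part of their reads.

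Grouped by position in the ribosome, the listed proteins rose at 10 mM or did not pass the test. Of them 0 fell, against 24% of all genes. In the P stalk, which recruits the elongation factors, Rplp0 (log2 fold change 0.33 at 10 mM) and Rplp1 (0.29) rose, and Rplp2 (0.15, adjusted p = 0.224, edgeR) passed with the block (0.0025). Of the pair that binds the smallest ribosomal RNA of the large subunit and, when in excess, Mdm2, Rpl5 rose (0.33, adjusted p = 0.00842) and Rpl11 was at 0.08 (adjusted p = 0.547). Of the 9 listed proteins of the peptide exit tunnel and its rim, 6 rose and 0 fell, with a median of 0.24, against 25.7% and 24% of all genes. Those that rose were Rpl22, Rpl4 (0.42), Rpl23a (0.37), Rpl17 (0.25), Rpl39 (0.22) and Rpl19 (0.19), while Rpl35 (0.24), Rpl31 (0.02) and Rpl26 did not pass, and Rpl35 passed with the block (adjusted p = 0.00475).

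In the small subunit, Rps9 (0.39) and Rps3 (0.29), at the channel where mRNA enters, rose, and Rps2 (0.20, adjusted p = 0.0827, edgeR) passed with the block (3.87e-05). Where mRNA leaves, Rps14 (0.29) rose, Rps26 was at 0.26 and passed with the block (1.02e-06), and Rps28 was at 0.10 (adjusted p = 0.861). At the decoding site Rps15 rose (0.24) and Rps23 was at 0.15 (adjusted p = 0.307). Rps6, the protein that the S6 kinases phosphorylate, was at 12.7, 13.0 and 14.6 CPM in control, 13.8, 13.5 and 16.1 CPM at 1 mM and 17.9, 15.5 and 16.7 CPM at 10 mM. The 10 mM libraries lay above control, and it rose by 0.31 ± 0.10 (adjusted p = 0.0234). Rps27a, made as a fusion with ubiquitin, was at 0.14 (adjusted p = 0.365). At 1 mM, of the genes named for position, Rplp0, Rpl5, Rpl22, Rpl4, Rps3 and Rps9 passed with the block and none without it.

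The levels of the members, as counted per length, were far from equal. Divided by the length of the main coding transcript in GENCODE M21, the mean control level ran from 682 CPM per kb for Rpl8 and 676 for Rpl41 down to 5.44 for Rps13, 3.91 for Rpl29 and 1.70 for Rpl26. The SDs over 3 libraries were 53.6 CPM per kb for Rpl8 and 55.4 for Rpl41, so their order is not resolved, whereas the distance to the lowest genes is far beyond any SD. Rpl8 rose by 0.18 on the log2 scale at 10 mM (adjusted p = 0.0409, edgeR), and Rpl41, the shortest protein of the ribosome, was at 0.09 (adjusted p = 0.354, and 0.0105 with the block). The low end was counted from few reads: Rpl26 had 382 counts over the 9 libraries, the fewest of the members, against 341187 for Rpl4. The median level was 26.5 CPM per kb for the large and 64.6 for the small subunit genes.

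Ribosomal protein genes have many processed copies in the mouse genome, and reads that match several places may be dropped or split. How such reads were handled is not given in the sources used here. As a gauge, each 75-base window of the coding transcript used for a member's length was looked up. The search was for exact matches in the transcripts of all other GENCODE M21 genes on either strand. The labelled read length is 75 bases. The share of windows found elsewhere ran from 0%, as in Rps3, to 98.5% in Rps27. Over the 81 members the level per kb on a log2 scale had a Pearson correlation of -0.442 (Spearman -0.447) with this share, and the log2 fold change at 10 mM 0.285 (Spearman 0.179). These are descriptions across genes of the same libraries, and genes are not independent replicates. Rpl26, the lowest of all, had 35.5% of windows shared.

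The rise at 10 mM was also present among members with fewer windows shared. Of the 46 with less than 50% of windows shared, 26 rose and 2 fell, with a median of 0.26. Of the 35 with more, 21 rose and 0 fell, with a median of 0.31. The shares of all genes were 25.7% and 24%. The part of shared reads in the members' rise was not tested. Within the less shared members, the medians were 0.29 for 28 large and 0.25 for 18 small subunit genes. The share and the level per kb both depend on the transcript used. Long ones were used for Rps15a (5179 bases, 4.13% shared), Rps20 (3706 bases, 6.55%) and Rpl18 (2989 bases, 21.4%), all among the less shared. Whether these cells make such long forms was not tested. Of the 8 members that stood apart, only Rpl22 (1.4% shared) and Rpl12 (47.95%) were among the less shared. Rpl10 (84.9%), Rpl10a (87.6%), Rpl3 (83.2%), Rps12 (82.6%), Rps27 (98.5%) and Rpl22l1 (58.6%) are therefore uncertain to the extent that copies took part of their reads. Exons of Rpl12 overlap Lrsam1 on the other strand, those of Rpl10a overlap a long noncoding RNA at its promoter and those of Rpl22l1 overlap an antisense gene. Reads of these partners cannot be told apart from those of the members, as the sources used here do not give the strand setting. Exons of Rpl10, Rpl12, Rpl3 and Rps12 also overlap small nucleolar RNA genes on the same strand, where strand does not separate reads.

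**Figure D4:**
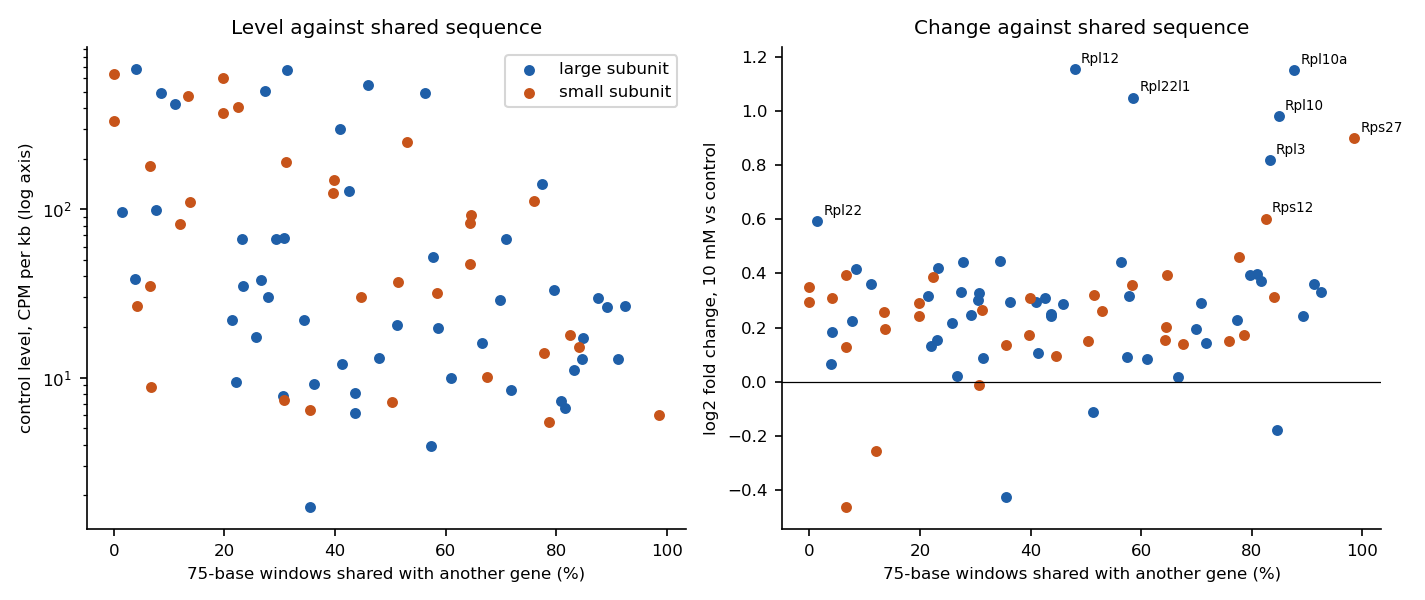
Left, mean control level of each member (CPM per kb, log axis) against the share of its 75-base windows found in another annotated gene; right, log2 fold change at 10 mM against the same share, large subunit in blue and small in orange. Levels are lower toward the right (Pearson -0.442 on the log2 scale), and 6 of the 8 labelled members lie beyond 50% shared.

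Transcript length moved with the response of all genes. At 10 mM the median log2 fold change of genes with under 1500 bases of exon was -0.19, and that of genes over 6000 bases was 0.06. The 26 members in the shortest class had a median of 0.21, and the 39 members between 1500 and 3000 bases 0.31, beside -0.07 for all genes of that class. In each of the 4 length classes the median of the members lay above that of all genes. The part of length in the members' rise was not tested.

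A few members differed by replicate number. In 5 of the 81 (6.17%), the means of the 3 replicate numbers over the groups spanned more than 0.5 on the log2 scale. The share was 12% of all genes tested and 4.9% of those whose average log2 CPM reached 1, so the members' share lay between these. Rps28 was at 13.3, 18.8 and 7.44 CPM in control replicates 1 to 3, 13.1, 17.8 and 7.61 CPM at 1 mM, and 14.4, 20.1 and 7.69 CPM at 10 mM. Replicate 2 was highest and replicate 3 lowest in every group, a 2.49-fold span, while the group means spanned 0.11 on the log2 scale.

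Rpl21 was at 14.1, 24.6 and 13.8 CPM in control, and replicate 2 was the highest again at 1 mM (25.5 CPM) and 10 mM (27.0 CPM). Rps24 was highest in replicate 1, at 226 CPM against 142 and 167 CPM in control, and in the same order at 1 mM and 10 mM. Rps19, in which mutations cause a failure of red cell production in humans, was at 132, 130 and 86.0 CPM in control, with replicate 3 lowest in every group. Rpl35a was highest in replicate 1 of each group, at 8.11, 7.43 and 8.34 CPM. These 5 genes did not pass the test without the block. With it, Rps19 (adjusted p = 1.06e-08, edgeR), Rps24 (2.55e-06) and Rpl21 (0.0374) rose at 10 mM, by 0.31, 0.19 and 0.13. What the replicate numbers stand for is not given in the labels, and the cause of these spans was not tested.

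**Figure D5:**
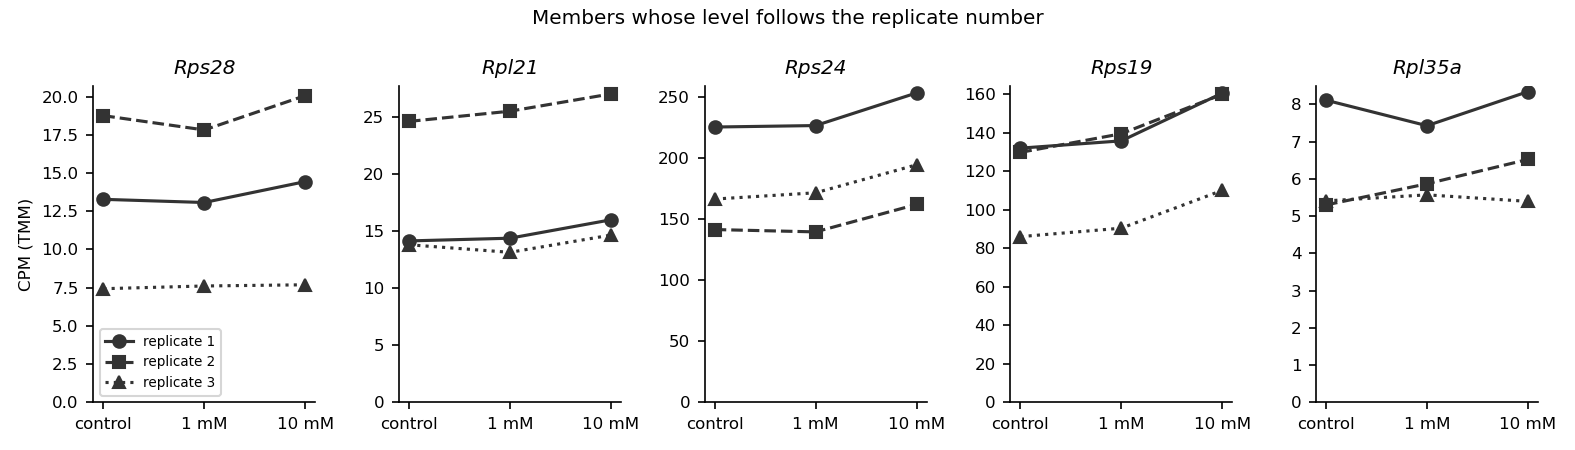
CPM of Rps28, Rpl21, Rps24, Rps19 and Rpl35a in each library against dose, with a line for each replicate number. Rps28, Rpl21 and Rps24 each have a replicate that stays highest at all doses; in Rps19 the lines of replicates 1 and 2 cross above replicate 3, and in Rpl35a those of replicates 2 and 3 cross below replicate 1.

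Genes outside the naming rule that encode cytosolic ribosomal proteins did much the same. Gnb2l1, the older symbol of Rack1, a scaffold on the small subunit, was at 937, 829 and 855 CPM in control, 992, 930 and 942 CPM at 1 mM and 1184, 1109 and 1167 CPM at 10 mM. The 10 mM libraries lay above all others, and it rose by 0.40 ± 0.05 (adjusted p = 0.000147, edgeR). Rps3a1 (0.31, adjusted p = 0.012) and Fau (0.23, adjusted p = 0.047), a fusion of a ubiquitin-like protein with a small subunit protein, also rose.

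Other mRNAs of the 5′TOP family moved in the same direction at 10 mM. Of 17 listed genes of the translation machinery, 15 rose (88.2%) and 0 fell, against 25.7% and 24% of all genes. Their median was 0.32. Eif4b, an initiation factor that helps unwind mRNA, had a mean of 501 CPM in control, 587 CPM at 1 mM and 843 CPM at 10 mM, a log2 fold change of 0.75 ± 0.05 (adjusted p = 6.58e-07, edgeR). The initiation factor subunits Eif3a (0.66) and Eif3e (0.53) followed. At 1 mM, 2 of the 17 rose, against 5.69% of all genes: Pabpc1, the poly(A)-binding protein, and Eif4b, each by 0.23. With the block 11 of the 17 rose at 1 mM, against 18.1% of all genes. Without 1 mM replicate 1 the number was 0, and without 1 mM replicate 3, control replicate 2 or 10 mM replicate 1 it was 1. Over the 9 libraries the gene whose log2 CPM was most like the summed level of the members was Eef1a1, the elongation factor that delivers tRNA (Pearson 0.993), followed by Gm13826, Ccdc9, Casd1 and Ube2ql1. This likeness is across libraries of 3 doses and carries no p.

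Of 30 listed ribosome biogenesis genes, 16 rose (53.3%) and 5 fell (16.7%) at 10 mM, against 25.7% and 24% of all genes. Their median was 0.20. The rises of the list came to 8 with library totals alone and 6 with upper-quartile scaling, beside 2851 and 2559 of all 15153 genes. They came to 7 without 10 mM replicate 1, beside 3368 of 15327 genes. Without 10 mM replicate 3 or control replicate 2 they came to 8, beside 3391 of 15333 and 3433 of 15337 genes. The falls of the list came to 3 without 10 mM replicate 1 or 2, or control replicate 1 or 3. Nob1, a nuclease of small subunit maturation, rose by 0.67 ± 0.07 (adjusted p = 1.81e-05, edgeR). Nop10 and Nhp2, small proteins of the particles that pseudouridylate ribosomal RNA, fell, by 0.92 and 0.91. Both had also fallen at 1 mM, each by 0.37, but 0 of the list fell at 1 mM without control replicate 1 and 1 without 1 mM replicate 3. With the block 7 of the list rose and 8 fell at 1 mM, against 18.1% and 18.3% of all genes. Reads of Rn45s, the ribosomal RNA precursor, took 1.01% ± 0.05 of counts in control, 0.691% ± 0.17 at 1 mM and 0.544% ± 0.02 at 10 mM (SD over the 3 libraries), after depletion of ribosomal RNA by the library kit.

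Of 23 listed regulators of translation, 15 rose (65.2%) and 2 fell (8.7%) at 10 mM, against 25.7% and 24% of all genes. Their median was 0.29. The largest rises were of Trib3, a pseudokinase target of ATF4, from 1.23 CPM in control to 67.1 CPM at 1 mM and 107 CPM at 10 mM, and of Eif4ebp1, which holds back cap-dependent initiation, from 13.9 to 115 and 194 CPM. Sesn2, an inhibitor of mTORC1 signalling, went from 23.6 to 167 and 281 CPM. The log2 fold changes at 10 mM were 6.43 for Trib3, 3.8 for Eif4ebp1 and 3.57 for Sesn2 (adjusted p = 4.25e-09, 3.64e-08 and 5.45e-09, edgeR). Translation itself was not measured in these libraries.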

How the data were processed

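RNA-seq of 9 libraries was analysed from the deposited table of raw read counts per gene (whole numbers, 24061 rows). Per the labels' protocols, cDNA was amplified before a stranded library kit that depletes ribosomal RNA, and STAR aligned the read pairs to mm10. The submitters' processing notes also name bcl2fastq 2.17 and HTSeq. For the annotation, strand setting and treatment of multiply mapped reads: not given in the sources used here. Of the rows, 1 names no gene (0.000101% of counts) and was left out.

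Genes were filtered with filterByExpr (minimum count 10, minimum total 15) and scaled by TMM. All 9 libraries were fitted together in edgeR 4.0.16 (R 4.3.3, limma 3.58.1), with 3 groups and no block, and tested by the two-sided quasi-likelihood test with Benjamini-Hochberg adjustment over 15153 genes. The SE is the log2 fold change divided by the square root of F. Reads carry no molecular identifiers, so errors treat copies of a molecule as separate. The fit was checked on simulated counts. Alternatives were DESeq2 1.42.0, other scalings, no filter, the compared libraries alone, a replicate block and each library left out.

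Deviations from group means correlated at 0.322 to 0.481 between libraries of the same number. Between libraries that differ in both number and group, they correlated at -0.325 to -0.113. Deviations within a group sum to 0, so the second range is not separate from the first. The numbers were taken to pair the libraries, from the data.

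Named genes were the 6 large and 6 small subunit members with the largest called differences in each comparison, those that fell, listed positions, paralogs, the 3 highest and 3 lowest levels per length, and 3 genes per other list. Members, lists and rules were chosen with earlier results of these data known. Promoter sequences are RefSeq's (GRCm38.p6). A protein sequence table was not used here. A few genes are counted in the totals but not reported by name here.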

Additional observations from a re-analysis of the deposited data

How the results depend on the processing

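No result changed direction while called. With the replicate block, 24 members rose and 2 fell at 1 mM, and 59 rose and 1 fell from 1 to 10 mM. No call of a member made without the block was lost with it. Other named members that gained a call at 1 mM were Rpl7, Rpl13a, Rpl27a, Rpl36al, Rps18 and Rps20, among others counted above. From 1 to 10 mM, 14 members rose with library totals alone and 13 with upper-quartile scaling. Against control at 10 mM, 27 rose with upper-quartile scaling, and 1 fell in the fit to the 6 libraries compared. The medians from 1 to 10 mM were 0.14 (large) and 0.12 (small) with library totals and 0.13 and 0.12 with upper-quartile scaling. Against control at 10 mM they were 0.20 and 0.17 with library totals and 0.18 and 0.14 with upper-quartile scaling. Both scalings lower the values of all genes at 10 mM, by 0.09 and 0.12.

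Leaving out 1 library at a time, 1 to 3 members rose at 1 mM. At 10 mM against control 36 to 45 rose and 1 to 2 fell, and from 1 to 10 mM 13 to 31 rose and 0 to 1 fell. The rises at 10 mM were fewest, at 36, without 10 mM replicate 1 or control replicate 2. Without 10 mM replicate 1 the falls of Rps4l and Rps27l were both lost, and 1 large subunit gene fell. The fall of Rps4l was lost in several other fits as well. Of the 49 calls at 10 mM, 32 were kept in each of the 9 fits with a library left out.

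Depth limits the least counted members, such as Rpl26, most. The remaining alternatives, DESeq2 among them, gave counts of called members, over both subunits, within 1.5 times those reported. The share of counts on the members was 1.03% in control and 1.18% at 10 mM without the 5 most counted other genes of each library, beside 0.993% and 1.15% with them.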

Other observations

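The proteins of the mitochondrial ribosome and of the respiratory chain, which the cytosolic ribosome also makes, were counted from lists of their genes. How they differ from the cytosolic ribosomal protein genes was not tested. Of 77 mitochondrial ribosomal protein genes, 33 rose and 17 fell, with a median log2 fold change of 0.12, against 25.7% and 24% of all genes. That is 42.9% and 22.1% of the list, so the share of falls is near that of all genes. With upper-quartile scaling 21 rose, beside 2559 of all 15153 genes. The largest called differences were falls, of Mrpl55 (-1.31), Mrpl34 (-1.20) and Mrpl36 (-1.16), proteins of the large mitochondrial subunit (adjusted p = 3.86e-06, 2.58e-06 and 1.62e-05, edgeR). Mrpl34 went from a mean of 41.8 CPM in control to 31.2 CPM at 1 mM and 18.2 CPM at 10 mM. At 1 mM, 2 of the 77 rose and 5 fell, against 5.69% and 4.34% of all genes. The block gave 21 rises and 13 falls, against 18.1% and 18.3% of all genes. DESeq2 gave 8 rises, beside 1069 of all 15153 genes. Leaving out 1 library gave 0 to 3 rises and 2 to 7 falls. The rises were 0 without 1 mM replicate 1 or 3, or control replicate 2 or 3, and 1 without 10 mM replicate 1 or 3. The falls were 2 without control replicate 1, and 3 without control replicate 3 or 1 mM replicate 3.

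Among 54 respiratory chain genes of the nucleus, 4 rose (7.41%) and 24 fell (44.4%) at 10 mM, against 25.7% and 24% of all genes. Their median was -0.10. The rises were 2 with upper-quartile scaling or library totals alone and 8 with the block. Uqcr11, a small subunit of complex III, fell by 0.95 on the log2 scale, from a mean of 58 CPM in control to 46.4 CPM at 1 mM and a lower level at 10 mM (adjusted p = 4.61e-06, edgeR). The complex I genes Ndufb3 (-0.88) and Ndufv3 (-0.71) fell as well. At 1 mM, 0 of the 54 rose and 7 fell (13%), against 5.69% and 4.34% of all genes. Those that fell included Uqcrh (-0.39), Uqcr11 (-0.32) and Cox6b1 (-0.31). The block gave 20 falls and 0 rises, against 18.3% and 18.1% of all genes. The falls were 12 with upper-quartile scaling, 3 without 1 mM replicate 1, and 2 without 1 mM replicate 3 or control replicate 1. Many of these mRNAs are short, and genes under 1500 bases of exon had a median of -0.19 at 10 mM. The part of length in these falls was not tested.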
